A study of Mus musculus with 9 samples.

Results

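The genes described here encode 32 proteins that fold other proteins in the endoplasmic reticulum (ER) or remove those that fail to fold. They were taken by symbol from a table of 25860 genes, and all 32 symbols were found. The study sequenced polyadenylated RNA of cells that carry Osx1-Cre, sorted by flow cytometry from cultures of the calvaria (skull roof) of newborn mice aged 2 to 4 days. In such cells Cre is driven by the promoter of Sp7, which encodes osterix and is active in cells committed to bone formation. The medium was alpha-MEM with 10% serum, RNA was taken at 90% confluence, and cells of 3 to 5 pups made up each library. The 2 groups were IRE1KO (5 libraries) and WT (4 libraries). Per the labels the sorted cells of both groups were Osx1-Cre cells. The labels do not give the Ern1 allele behind IRE1KO, the strain, or the sex of the pups, and no ER stress agent is named for either group. The comparison asks what loss of IRE1, a stress sensor of the ER membrane encoded by Ern1, does to gene expression in these cells.

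Proteins that enter the ER are held unfolded by BiP (Hspa5) and its J-domain partners, folded as glycoproteins in the calnexin and calreticulin cycle, and given disulfide bonds by the protein disulfide isomerases. Proteins that do not fold are drawn back to the cytosol and degraded, a process called ER-associated degradation (ERAD). When unfolded proteins build up, IRE1 splices Xbp1 mRNA to give the transcription factor XBP1s, and ATF6, a membrane-bound factor, is cleaved and moves to the nucleus. Both act on chaperone and ERAD genes through short promoter elements. Osteoblasts export large amounts of type I procollagen, whose folding and hydroxylation take place in this compartment.

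The elements through which ATF6 and XBP1 are known to act were searched in the promoters. Promoter sequence was not used to choose the genes. As the list holds known targets of these factors, a high share of elements is not an independent result. RefSeq promoters (GRCm38.p6, 250 bases before to 50 after the gene start, 300 in all) were found for 28 of the 32 genes. These 28 genes have 32 promoters, and a gene was counted if any of its promoters held the element. Shares of the 28 are thus per gene, while those of all promoters are per promoter. Derl1, Hspa13, Hyou1 and Manf were without an entry. The ER stress response element (ERSE), written CCAAT, then any 9 bases, then CCACG, and searched on both strands like the others, was found in 9 of the 28 genes (32.1%), against 0.119% of all 32851 promoters of that length. The shorter ERSE-II, ATTGG and CCACG with any 1 base between them, was found in 2 (7.14%), against 0.0365% of all promoters. The unfolded protein response element (UPRE), TGACGTGG, was found in 1 (3.57%), against 0.676%. No element overlapped one of another kind. Each is shown with 5 bases on either side, read on the strand that gives the element 5′ to 3′, with its fixed letters in capitals. The position is that of its first base along the gene, counted from the RefSeq start.
Hspa5, ERSE at -65 (chr2:34772020-34772048, + strand): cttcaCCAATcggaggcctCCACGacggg
Hsp90b1, ERSE at -212 (chr10:86705633-86705661, - strand): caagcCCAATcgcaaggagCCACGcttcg
Hsp90b1, ERSE at -107 (chr10:86705528-86705556, + strand): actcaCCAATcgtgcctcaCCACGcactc
Dnajc3, ERSE at -105 (chr14:118937822-118937850, + strand): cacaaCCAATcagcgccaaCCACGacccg
Creld2, ERSE at -126 (chr15:88819515-88819543, - strand): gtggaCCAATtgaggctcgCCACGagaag
Calr, ERSE at -162 (chr8:84847070-84847098, + strand): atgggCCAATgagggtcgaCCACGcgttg
Canx, ERSE at -145 (chr11:50325795-50325823, - strand): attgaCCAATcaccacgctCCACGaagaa
Pdia6, ERSE at -98 (chr12:17266486-17266514, + strand): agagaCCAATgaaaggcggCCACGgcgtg
Syvn1, ERSE at -44 (chr19:6046527-6046555, + strand): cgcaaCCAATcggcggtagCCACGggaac
Derl3, ERSE at -156 (chr10:75893237-75893265, - strand): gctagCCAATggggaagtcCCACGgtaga
Herpud1, ERSE-II at -52 (chr8:94386372-94386392, + strand): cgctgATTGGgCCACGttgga
Dnajb11, ERSE-II at 8 (chr16:22857847-22857867, + strand): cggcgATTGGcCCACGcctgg
Txndc5, UPRE at -138 (chr13:38528040-38528057, - strand): gccgcTGACGTGGcgcta

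The whole promoters of Hspa5 and Pdia6 are shown, the first as the promoter of the central chaperone and the second as that of the gene with the largest difference between groups. Both run 5′ to 3′ along the gene, with the fixed letters of the exact ERSE match in capitals. Variants of the element are not marked.
Hspa5 promoter (chr2:34771840-34772139, + strand): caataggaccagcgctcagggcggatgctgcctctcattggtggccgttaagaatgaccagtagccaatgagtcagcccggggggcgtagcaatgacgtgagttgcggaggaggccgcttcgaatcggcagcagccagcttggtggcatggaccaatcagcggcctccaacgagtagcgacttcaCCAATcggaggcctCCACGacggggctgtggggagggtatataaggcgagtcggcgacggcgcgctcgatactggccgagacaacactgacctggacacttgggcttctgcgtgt
Pdia6 promoter (chr12:17266339-17266638, + strand): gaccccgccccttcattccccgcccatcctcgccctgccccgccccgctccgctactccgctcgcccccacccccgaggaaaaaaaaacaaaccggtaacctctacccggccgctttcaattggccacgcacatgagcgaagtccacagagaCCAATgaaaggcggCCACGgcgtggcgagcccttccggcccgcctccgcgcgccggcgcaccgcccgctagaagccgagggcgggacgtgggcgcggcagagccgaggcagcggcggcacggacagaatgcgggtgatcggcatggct

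**Figure D1:**
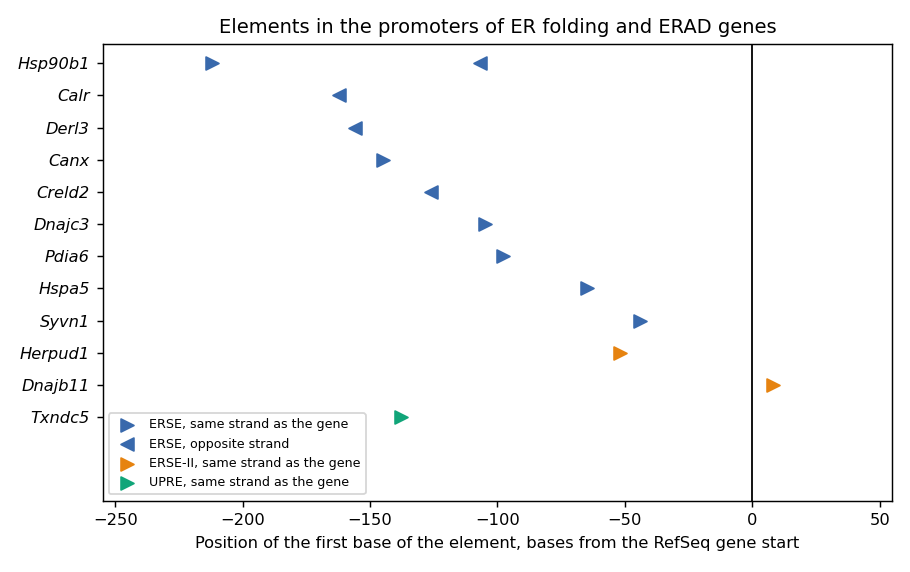
Positions of the ERSE, ERSE-II and UPRE elements, in bases from the RefSeq gene start, with 1 line per gene; right-pointing triangles lie on the strand of the gene and left-pointing ones on the opposite strand. The 10 ERSE elements start between -212 and -44.

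Libraries held 18784636 to 22028075 counts. Sp7 and Runx2, transcription factors of the lineage, were present at 13.6 to 24.6 and 59.8 to 75.1 CPM (counts scaled to a common library size, with TMM factors), while Bglap, the osteocalcin of mature osteoblasts, was at 0 to 0.192 CPM, near the 0.137 to 0.159 CPM that 3 counts are worth. Ern1 was at 49.8 to 55.8 CPM in IRE1KO, against 41.5 to 54.2 CPM in WT, a total per gene that does not show whether exons are missing, so it does not check the genotype. Markers of some other cell types differed between the groups. Of 5 tested adipocyte markers 3 fell (Plin4, Fabp4 and Lpl), and the list of 8 summed to 56.4 to 63.9 CPM in IRE1KO, against 81.6 to 142 CPM in WT, with Cidec at 0 in all libraries and Plin1 at 3 counts or fewer. Of 8 tested glial and pigment cell markers Ngfr fell, and the list of 10 summed to 53.2 to 61.2 and 79.1 to 115 CPM. Lists for chondrocytes and for macrophages and osteoclasts gave 0 of 9 passing each, and of 6 endothelial markers Pecam1 fell. Chondrocyte markers summed to 722 CPM in IRE1KO library 2, to 1266 to 1422 CPM in the other IRE1KO libraries and to 1391 to 1441 CPM in WT. Of 5 markers of plasma cells, whose ER is highly developed, 4 were matched and summed to 108 to 119 CPM in IRE1KO, against 96.0 to 126 CPM in WT, and the 1 tested did not pass. Nearly all of this was Sdc1, which other cell types also express. Mzb1 was at 0 in all libraries, Jchain at 3 counts or fewer, and Prdm1 at 0.512 CPM or less. The part of these cells in the values below was not tested, and in a culture fewer cells of a type and less RNA per cell cannot be told apart.

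The genes took 1.01% to 1.06% of all counts in the IRE1KO libraries and 1.01% to 1.10% in the WT libraries. Levels between genes were compared as CPM per kb of annotated exon (GENCODE M21, GRCm38), given here as WT means. The length is that of all annotated exons of a gene together. It can exceed that of the RNA present, so the order of genes is approximate. The highest level was that of Pdia3 (469 CPM per kb), the oxidoreductase that works with calnexin and calreticulin. Calr (403), Hsp90b1 (366), P4hb (324), Hspa5 (195), Canx (147), Pdia4 (143) and Pdia6 (126) followed, and these 8 were the genes above 100 CPM per kb. Another 23 lay between 7.39 CPM per kb (Derl2) and 79.1 CPM per kb (Txndc5). Derl3 was far below the rest at 0.174 CPM per kb. Abundant members were the general chaperones and isomerases, while the ERAD genes other than Os9 (62.2 CPM per kb) stayed at or under 26.4 CPM per kb. The WT ranges of Pdia3, Calr and Hsp90b1 did not overlap one another on this scale. Those of Hsp90b1 and P4hb did, as did those of Canx, Pdia4 and Pdia6, so that the order within these sets is within their spread. Exons of other annotated genes covered 15.7% of the exon length of Hsp90b1, 11.9% of Txndc5 and 9.25% of Manf. As the strand setting of the counting is not given, some of their counts could belong to those neighbours. The share was at most 2.87% for each of the other 29.

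**Figure D2:**
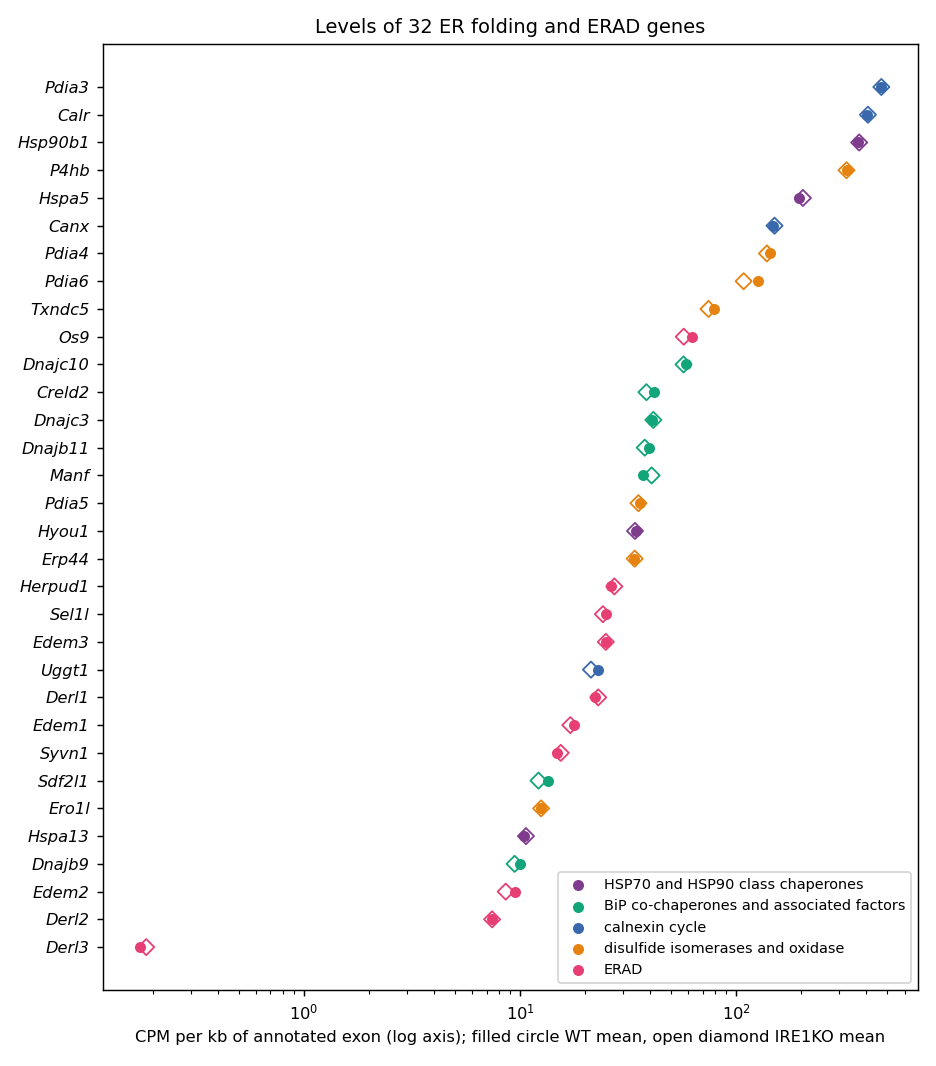
Mean level of the 32 genes, in CPM per kb of annotated exon on a log axis, ordered by the WT mean; filled circles are WT means and open diamonds IRE1KO means, and colours give the role. The symbols of a gene nearly coincide across a range from 0.174 (Derl3) to 469 (Pdia3).

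No gene of the group passed the test between IRE1KO and WT. Of 31 tested genes, 0 rose and 0 fell, with edgeR's quasi-likelihood test and a threshold of 0.05 on p adjusted over all 13712 tested genes (Benjamini-Hochberg). Of all tested genes 0.634% were called, 0.255% as higher and 0.379% as lower in IRE1KO. The smallest adjusted p was 0.155, for Pdia6. At an unadjusted p under 0.05 there were 4 of the 31 (12.9%), against 16.5% of all tested genes: Pdia6, Uggt1, Manf and Creld2. DESeq2 called Pdia6 (3.79% of its genes called) and limma voom called none of the 31. The log2 fold change was above 0 in 14 genes and below 0 in 17, with a median of -0.0025, beside -0.0050 over all tested genes. The median size of the change, whatever its sign, was 0.043 against 0.095. Over the 9170 tested genes at or above the level of the lowest tested member it was 0.075. Derl3 was too low to test.

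These estimates were narrow. The 95% interval of the ratio of IRE1KO to WT, not adjusted for the number of genes, lay within 1.2-fold either way for 25 of the 31 genes (80.6%) and within 1.5-fold for all 31. Over all tested genes the shares were 43.4% and 74.8%, and over the 9170 at or above the level of the lowest tested member they were 60.6% and 91.1%. The 6 exceptions at 1.2-fold were Pdia6, Sdf2l1, Txndc5, Os9, Edem2 and Ero1l. The lowest count of a tested member in any library was 242. IRE1KO and WT did not overlap in 2 of the 31 (6.45%), Uggt1 and Sel1l, beside 6.93% of all tested genes.

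**Figure D3:**
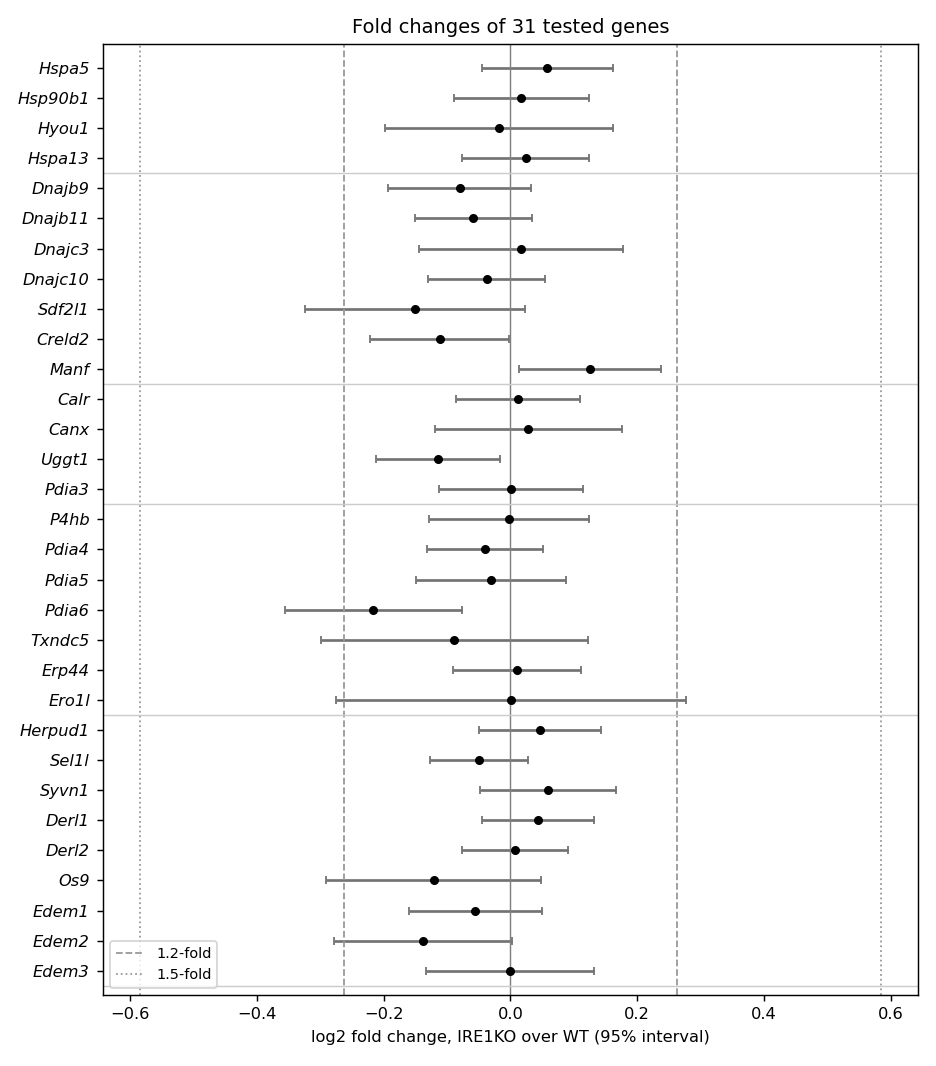
Log2 fold changes of the 31 tested genes, IRE1KO over WT, with 95% intervals from edgeR, grouped by role from top to bottom (HSP70 and HSP90 class, BiP cofactors, calnexin cycle, disulfide isomerases, ERAD). Dashed and dotted lines mark 1.2-fold and 1.5-fold, and the intervals of 6 genes, Pdia6 the farthest, cross a dashed line.

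Among the HSP70 and HSP90 class chaperones, 0 of 4 passed, with log2 fold changes of -0.018 to 0.058. BiP itself (Hspa5, chromosome 2 from 34771970 to 34777547, GRCm38), the HSP70 that also binds the lumenal domains of the stress sensors, was at 881, 893, 830.1, 851 and 844 CPM in IRE1KO libraries 1 to 5 and at 789.8, 859.5, 851 and 803 CPM in WT libraries 1 to 4. The groups overlapped, and the ratio of IRE1KO to WT was 1.04 with a 95% interval of 0.969 to 1.12. Hsp90b1, the ER form of HSP90 known as GRP94, stood at 1487, 1566, 1455, 1504 and 1450.3 CPM in IRE1KO, against 1493, 1488, 1519.7 and 1398 CPM in WT. Its ratio was 1.01 (0.940 to 1.09), and WT library 4 was the lowest of all. Hyou1, a large HSP70 relative that exchanges the nucleotide of BiP, was at 249.6, 248, 243, 237 and 252 CPM in IRE1KO, against 272, 274, 244 and 205 CPM in WT. All 5 IRE1KO values sat inside the WT range. The remaining member of this class, Hspa13, an ER and microsomal HSP70, had a ratio of 1.02 (0.949 to 1.09).

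Co-chaperones and factors that associate with BiP gave 0 of 7 passing and a median of -0.059. Dnajb9 (ERdj4), a J-domain protein and a classical XBP1s target, was at 25.9, 24.3, 24.2, 23.2 and 22.7 CPM in IRE1KO, against 25.4, 25.0, 24.7 and 26.6 CPM in WT. IRE1KO library 1 lay inside the WT range and the other 4 below it, and the ratio was 0.946 (0.875 to 1.02). Sdf2l1, which binds ERdj3 and BiP, was at 13.2, 14.6, 12.9, 14.4 and 12.4 CPM in IRE1KO, against 13.5, 16.5, 15.2 and 14.7 CPM in WT. WT library 1 was below 2 of the IRE1KO libraries. Its log2 fold change of -0.15 ± 0.077 SE had the widest interval of the class, from 0.798 to 1.02 as a ratio.

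Creld2, a secreted protein known to be induced by ER stress, was at 51.5, 53.6, 50.1, 56.0 and 51.1 CPM in IRE1KO, against 53.3, 60.5, 56.9 and 56.1 CPM in WT. Every IRE1KO library was below WT libraries 2 to 4, while WT library 1 lay among the IRE1KO values (ratio 0.925, interval 0.858 to 0.998, adjusted p = 0.291 in edgeR). Manf, a neurotrophic factor that is kept in the ER by BiP, went the other way, at 145, 144, 135, 146 and 145 CPM in IRE1KO, against 128, 143, 132 and 122 CPM in WT. IRE1KO library 3 was below WT library 2, and the remaining 4 were above all WT libraries. The log2 fold change was 0.13 ± 0.050 SE (adjusted p = 0.251 in edgeR). The other J-domain proteins, Dnajb11 (ERdj3), Dnajc3 (p58IPK) and the reductase Dnajc10 (ERdj5), had ratios of 0.960, 1.01 and 0.974.

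In the calnexin cycle, 0 of 4 passed. Calr (calreticulin), the soluble lectin, was at 1176, 1205, 1128, 1188 and 1156 CPM in IRE1KO, against 1113, 1164, 1205 and 1163 CPM in WT, with a ratio of 1.01 (0.942 to 1.08). Canx (calnexin), its membrane-bound counterpart, was at 719, 734, 706, 673 and 695 CPM in IRE1KO, against 744, 713, 712 and 598 CPM in WT. WT library 4 was the lowest of the 9 for Canx, and the ratio was 1.02 (0.921 to 1.13). Pdia3 (ERp57) was at 1494, 1545, 1391, 1500.0 and 1429 CPM in IRE1KO, against 1428, 1419, 1527 and 1508 CPM in WT, a ratio of 1.00 (0.925 to 1.08).

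Uggt1, the folding sensor that puts glucose back on glycoproteins that are not yet folded and so returns them to calnexin, had the smallest p of the cycle. It lies on chromosome 1 from 36140027 to 36244720 (GRCm38). Its level was 273, 277, 279, 269 and 270.2 CPM in IRE1KO, against 279.7, 310.0, 311 and 284 CPM in WT. The groups did not overlap, but IRE1KO library 3 and WT library 1 nearly touched. The log2 fold change was -0.11 ± 0.044 SE with an adjusted p of 0.238 in edgeR. With WT libraries 1 and 4 both left out, a choice made after seeing the data, it was -0.18 ± 0.034 SE with an adjusted p of 0.0132 in edgeR, where 10.6% of all tested genes were called.

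The disulfide isomerases and the oxidase, 7 genes together, gave 0 passing. Pdia6 (P5), an isomerase known to bind IRE1, had the largest difference of the 31. It lies on chromosome 12 from 17266545 to 17284770 (GRCm38), and its ERSE is among those shown above. Pdia6 was at 410.3, 408, 398, 416 and 394 CPM in IRE1KO, against 416, 461, 486 and 520.1 CPM in WT. WT library 1 was level with IRE1KO library 4, and WT libraries 2 to 4 were above all 5 IRE1KO libraries. The ratio was 0.861 (0.782 to 0.948) and the log2 fold change -0.22 ± 0.062 SE, with an adjusted p of 0.155 in edgeR. It passed without WT library 1 (log2 fold change -0.27, adjusted p = 0.0164 in edgeR, with 8.63% of all tested genes called), without WT libraries 1 and 4 (-0.22, adjusted p = 0.0123) and in DESeq2 (-0.21, adjusted p = 0.0319). Over the 16 alternatives its log2 fold change ranged from -0.27 to -0.17 and its adjusted p from 0.0123 to 0.393.

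P4hb, the founding protein disulfide isomerase and also the beta subunit of collagen prolyl 4-hydroxylase, lies on chromosome 11 at 14.1 Mb from Ern1. It was at 903, 974, 888, 922 and 937 CPM in IRE1KO, against 864, 888, 947 and 1006 CPM in WT, a ratio of 0.998 (0.915 to 1.09). Pdia4 (ERp72) was at 339, 329, 325, 341 and 329 CPM in IRE1KO, against 326, 335, 348 and 359 CPM in WT, with a ratio of 0.972 (0.913 to 1.04). Ero1l (Ero1a), the oxidase that recharges the isomerases, was at 66.3, 69.7, 67.0, 60.7 and 67.0 CPM in IRE1KO, against 77.7, 74.1, 64.4 and 48.1 CPM in WT. The WT values of Ero1l spread on both sides of the IRE1KO values, and the ratio of 1.00 had the widest interval of the 31, from 0.826 to 1.21. Pdia5, Txndc5 (ERp46) and Erp44, which retains Ero1 and unassembled proteins in the early secretory pathway, had ratios of 0.979, 0.940 and 1.01.

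**Figure D4:**
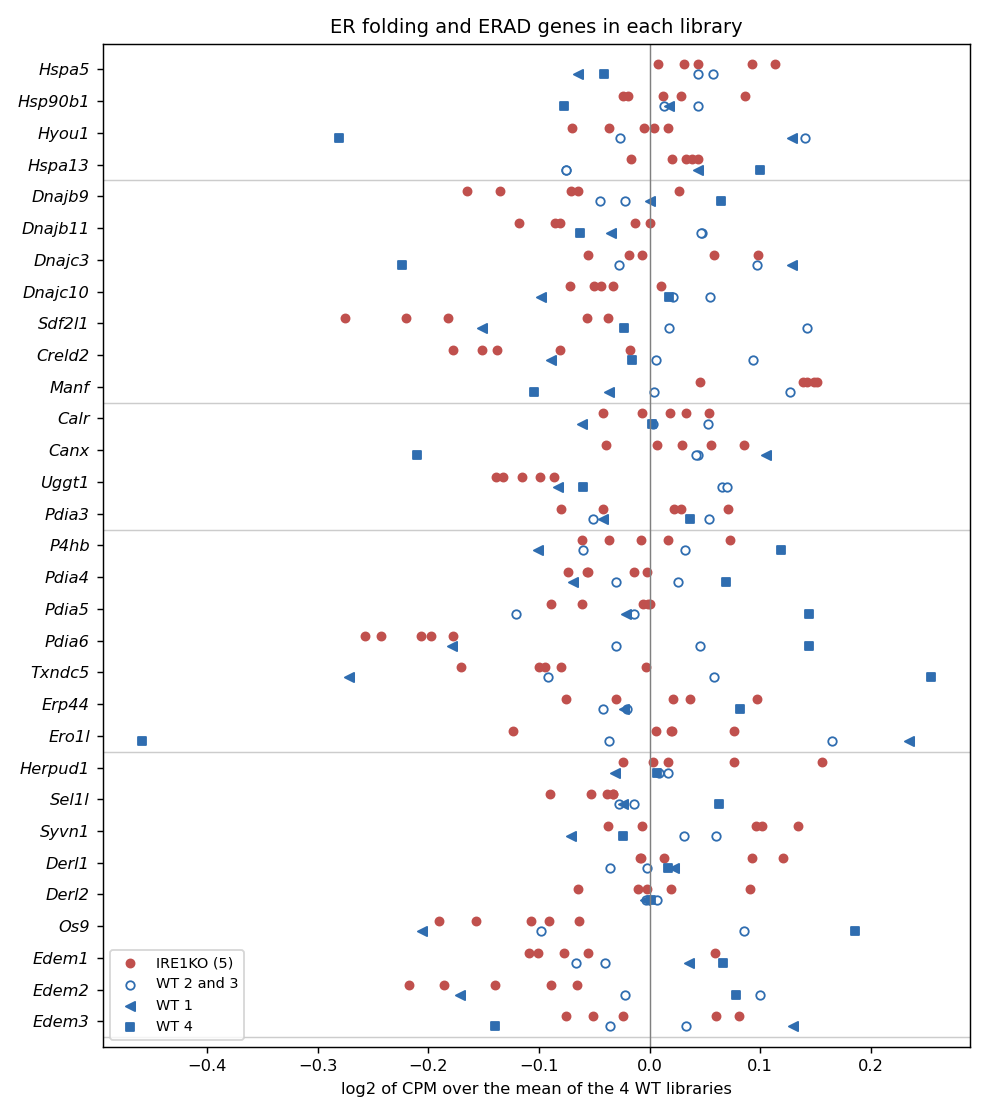
Level of the 31 tested genes in each library, as log2 of CPM over the mean of the 4 WT libraries, by role from top to bottom; red circles are the 5 IRE1KO libraries, open circles WT 2 and 3, triangles WT 1 and squares WT 4. For Pdia6, WT 1 lies beside the IRE1KO libraries, and for Ero1l, Hyou1, Canx and Dnajc3, WT 4 lies far to the left.

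ERAD genes likewise gave 0 of 9 tested passing, with log2 fold changes of -0.14 to 0.059. Herpud1, a membrane protein that assembles the retrotranslocation complex, was at 68.7, 60.6, 61.8, 65.0 and 62.4 CPM in IRE1KO, against 60.3, 62.0, 62.4 and 61.9 CPM in WT. IRE1KO library 1 was the highest of all 9, and the ratio was 1.03 (0.967 to 1.10). Syvn1 (HRD1), the ubiquitin ligase of that complex, was at 76.9, 71.6, 70.1, 77.2 and 79.0 CPM in IRE1KO, against 68.5, 75.0, 73.5 and 70.8 CPM in WT. Its ratio was 1.04 (0.967 to 1.12). Sel1l, the adaptor that stabilises HRD1, was at 209, 206, 208, 201 and 209 CPM in IRE1KO, against 211, 212, 210.0 and 224 CPM in WT. The groups did not overlap, although the gap was narrow and the ratio close to 1, at 0.966 (0.916 to 1.02).

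Mannosidase-like Edem proteins mark glycoproteins for disposal. Edem1 was at 109, 119, 110.3, 106 and 107 CPM in IRE1KO, against 117, 111, 109 and 120.0 CPM in WT (ratio 0.962, interval 0.895 to 1.04). Edem2, which makes the first mannose cut, had the smallest p of the ERAD genes. It was at 28.8, 29.7, 28.2, 30.8 and 31.3 CPM in IRE1KO, against 29.1, 32.2, 35.1 and 34.5 CPM in WT, with WT library 1 among the IRE1KO values (log2 fold change -0.14 ± 0.062 SE, adjusted p = 0.307 in edgeR). Edem3 had a ratio of 0.999 and Os9, the lectin that hands marked glycoproteins to the ligase, of 0.919 (0.818 to 1.03).

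Derlins span the membrane at the exit channel, and Derl1 and Derl2 had ratios of 1.03 and 1.00. Derl2 was nearly constant among the WT libraries, with a coefficient of variation of 0.368%, the lowest of the 31 in WT. Derl3, the derlin of highly secretory cells and a known XBP1s target with an ERSE in its promoter, had 3, 5, 8, 9 and 13 reads in IRE1KO and 7, 2, 8 and 10 reads in WT, or 0.146 to 0.623 CPM and 0.103 to 0.523 CPM. At this depth a difference in Derl3 was not detectable.

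Genes with and without an element were set side by side. Among the 11 tested genes with any of the 3 elements, log2 fold changes ran from -0.22 (Pdia6) to 0.059 (Syvn1), with 0.016 as the median. Among the 16 whose promoter held no exact match they ran from -0.15 (Sdf2l1) to 0.011 (Erp44), with -0.039 as the median. Of the 11 with an element 7 were above 0 and 4 below, and of the 16 without one 4 were above and 12 below. The difference between the 2 sets was not tested. A match is a string of letters in a window and does not show that a factor was bound there. Only exact matches were counted, so a gene without one can still hold a variant of an element or one outside the window. Dnajb9, named above as an XBP1s target, is among the 16 without a match.

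Spread between libraries was larger in WT than in IRE1KO. The median SD of log2 CPM over the 31 genes was 0.052 in IRE1KO and 0.075 in WT, beside 0.076 and 0.16 over all tested genes. Over the 9170 tested genes of like or higher level the medians were 0.058 and 0.12. The WT value was the larger in 23 of the 31 (74.2%, against 82.8% of all tested genes). Among ERAD genes the WT value was the larger in 4 of 9. WT library 4 differed by more than 1.2-fold from the mean of the other 3 WT libraries in 5 of the 31 genes (16.1%), against 34.4% of tested genes of like or higher level. It was low for Ero1l (0.667 of the mean of the other 3), Hyou1 (0.777), Dnajc3 (0.817) and Canx (0.827), and high for Txndc5 (1.27). WT library 1 departed in the opposite direction, with 1.25 for Ero1l and 0.783 for Txndc5, although each library is part of the mean the other is set against. These 5 genes were named after their values were seen.

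WT library 1 was the lowest of the 4 WT libraries in 15 of the 31 genes (48.4%), against 31.1% of all tested genes. It was the WT library nearest to IRE1KO for Pdia6, Creld2, Uggt1 and Edem2, named after their values were seen. For Manf the nearest was WT library 2 (143 CPM), with WT library 1 at 128 CPM and the IRE1KO mean at 143 CPM. In WT library 4 the osteoblast lineage markers summed to 58801 CPM, against 31303 to 36311 CPM in the other 3 and 41511 to 46320 CPM in IRE1KO. Col1a1 alone was at 31100 CPM in WT library 4, against 15462 to 18114 CPM in the other 3, so the sum largely follows collagen. Of 8 tested markers of this list, 0 rose and 0 fell between IRE1KO and WT. The glial list was at 115 CPM in WT library 4, against 79.1 CPM in WT library 1. The part of these differences in the member values was not tested.

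**Figure D5:**
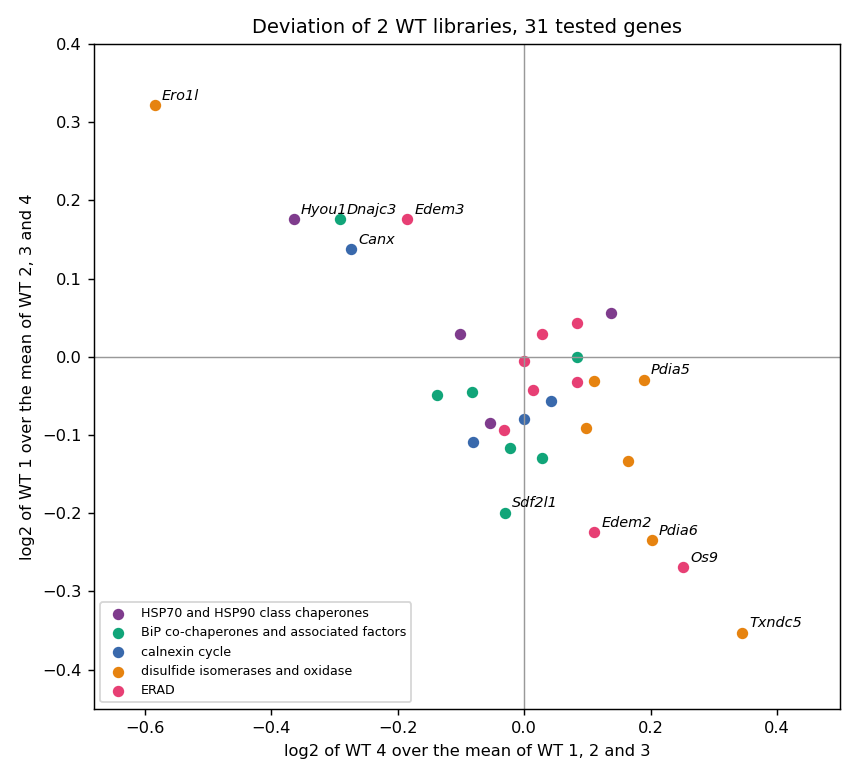
Deviation of WT library 4 (horizontal) and WT library 1 (vertical) from the mean of the other 3 WT libraries, as log2 ratios, for the 31 tested genes, coloured by role. Ero1l (0.667 and 1.25) and Txndc5 (1.27 and 0.783) mark the ends; the axes share libraries, so part of the slope follows from how they are built.

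A wider list of 67 other ER folding and ERAD genes gave no call either. Of 65 tested, 0 rose and 0 fell in edgeR, 6 had an unadjusted p under 0.05 (9.23%, against 16.5%), and neither DESeq2 nor limma voom called any. Fold changes centred on 0.0022 (median, log2), and the 95% interval lay within 1.2-fold for 48 of the 65 (73.8%) and within 1.5-fold for 62 (95.4%). Clgn and Pdia2, the testis calnexin and the pancreatic isomerase, were too low to test.

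Among 16 other folding factors the smallest p-values were those of Cdnf, a relative of Manf, at 4.09 ± 0.291 CPM in IRE1KO, against 5.31 ± 1.18 CPM in WT (SD, 5 and 4 libraries), and Fkbp14, a collagen-binding prolyl isomerase, at 94.3 ± 4.62 and 87.4 ± 5.55 CPM. Of 14 other thiol oxidoreductases, Tmx4 came first at -0.098 ± 0.055 SE (log2 fold change), followed by Prdx4, the ER peroxiredoxin, at -0.25 ± 0.15 SE. Of 6 glycan-trimming enzymes, Prkcsh, the beta subunit of glucosidase II, averaged 245 ± 7.79 CPM in IRE1KO, against 224 ± 10.8 CPM in WT, without overlap and with an adjusted p of 0.194 in edgeR, and Ngly1, the cytosolic N-glycanase, had a log2 fold change of -0.11 ± 0.065 SE. Among 29 other ERAD genes, the ubiquitin-conjugating enzyme Ube2j2 (0.18 ± 0.061 SE) and Aup1 (0.16 ± 0.055 SE) came first. IRE1KO and WT did not overlap in 2 of the 65 tested genes (3.08%), Prkcsh and Aup1, beside 6.93% of all tested genes.

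Some genes of the wider list passed once a WT library was left out. Without WT library 1, 5 of the wider list passed in edgeR, beside 8.63% of all tested genes: Cdnf (-0.52), Sil1 (-0.21), a nucleotide exchange factor of BiP, and Herpud2 (-0.14) were lower in IRE1KO, and Ube2j2 (0.23) and Aup1 (0.20) higher. Without WT library 4, Ppic, a prolyl isomerase, passed at 0.17, where 2.9% of all tested genes were called. Exons of other annotated genes covered 23.0% of the exon length of Aup1 and 5.7% of Sil1, so some of their counts could belong to those neighbours. Upstream of the group, Xbp1 was at 105 ± 4.04 CPM in IRE1KO, against 97.4 ± 1.76 CPM in WT, a gene total in which the spliced form cannot be told apart, and Atf6 at 83.0 ± 2.54 and 81.3 ± 10.0 CPM.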

How the data were processed

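Polyadenylated RNA of 5 IRE1KO and 4 WT libraries was sequenced, per the labels' protocols with strand-marked libraries prepared and run in 1 batch. What the authors deposited are raw counts of reads for each gene, whole numbers that differ in their totals and carry no scaling. STAR, limma and mm10 are named per the submitters' processing notes. Which counting program, annotation and strand option they used is not given in the sources used here.

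These counts entered edgeR 4.0.16 under R 4.3.3 (filterByExpr, TMM, robust quasi-likelihood test, genotype as the sole term, Benjamini-Hochberg over 13712 genes, threshold 0.05). DESeq2 1.42.0, limma 3.58.1 (voom), RLE scaling, no filter, a replicate block, 2 libraries summed and each library left out were alternatives, and leaving out WT libraries 1 and 4 together was added after seeing the data. An SE is the absolute log2 fold change over the square root of F, and 95% intervals use the t distribution of the fit. CPM use TMM-scaled library sizes. Python 3.11.15, NumPy 2.4.6, pandas 2.3.3 and matplotlib 3.10.9 made tables and figures. For log2 SDs 0.5 CPM was added. Positions, exon lengths and overlaps come from GENCODE M21 (GRCm38, the assembly mm10 names), matched by identifier, and promoter sequences from RefSeq GRCm38.p6.

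The fitting steps were tested on simulated counts with known changes in 200 of 13712 genes. The test recovered 12% of the 1.2-fold changes, 74% of the 1.5-fold, 92% of the 2-fold and 98% of the 4-fold. Of 148 calls 6.76% were false. Most changes of 1.2-fold were thus missed at this threshold, so a gene that did not pass can still differ by that much.

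The genes and lists were chosen with earlier results of these data known. All 32 genes are accounted for. Named in full were a set of 20, any that passed, and the gene with the smallest p in each role. From the wider list those that passed and the 2 with the smallest p in each role were named. Since each pool of pups is called 1 biological replicate, the spread includes biological variation; litter and culture day are not given and cannot be told apart from genotype. Counts carry no molecular identifiers, so the 3-count floor covers counting error only.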

Additional observations from a re-analysis of the deposited data

Results flagged for a closer look

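In 3 of 64 groups of libraries (32 genes, each in IRE1KO and in WT), 1 library lay far from the others for its group's range; chance gives about 1 in 20 such groups. Manf was at 135.3 CPM in IRE1KO library 3, against 144 to 146 CPM in the other 4. Erp44 was at 121.8 CPM in WT library 4, against 112 to 113 CPM, and Sel1l at 223.5 CPM in WT library 4, against 210.0 to 212 CPM. Leaving out IRE1KO library 3 or WT library 4 changed no call for these genes.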

How the results depend on the processing

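Over the 16 alternatives the 31 tested genes gave 496 fold changes, of which 481 moved by less than the SE of the value reported, 11 moved by more without passing, and 4 passed (Pdia6 in 3 settings and Uggt1 in 1). The largest size of a fold change was 0.272 on the log2 scale. The number of the 32 genes called was 0, but 1 in DESeq2 and 2 without WT libraries 1 and 4, and 0 to 1 when each library was left out. For the wider list it was 0, but 4 without WT libraries 1 and 4, and 0 to 5 when each library was left out. The number of all genes called was 87, but 45 with no filter on low counts, 583 in DESeq2, 16 in limma voom, 10 with IRE1KO libraries 3 and 5 summed, 1481 without WT libraries 1 and 4, and 2 to 1192 when each library was left out. The cause of these shifts was not tested. Labels give both groups numbers 1 to 4. Deviations of same-numbered libraries correlated at 0.151, -0.204, -0.194 and 0.473, so the numbers were not taken to pair libraries; numbers 1 and 4 correlated best with their own partner and 2 and 3 did not. With a replicate block 0 of all genes and 0 of the 32 were called. In the main fit low counts kept Derl3, alone of the 32 genes, from being tested. With no filter on low counts and in DESeq2 all 32 entered the fit, and Derl3 was not called.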
